A study of Homo sapiens with 3 samples.

Results

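The ID proteins and the BMP pathway that induces them were examined in HCT-116, an established line of human colorectal cancer cells, as a set of 10 genes: ID1, ID2, ID3, ID4, BMP2, BMP4, BMPR1A, BMPR2, SMAD6 and SMAD7. The genes were chosen by symbol, with earlier results of the same arrays known, and were read from probe sets annotated to exactly 1 gene. Whether a probe set was used was decided by its measured signal on these arrays, and the log2 ratios come from the same arrays, so all values of the set are a description. Of 54675 probe sets on the array, 23 were annotated to 9 of the 10 genes; BMPR1A was not named by any probe set with a gene annotation used here. A probe set was kept where its geometric mean signal over the 3 arrays reached 56.6, the median of all probe sets. This left 13 probe sets of 8 genes among 12321 tested genes, and BMP2 was the gene that did not pass.

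There were 3 arrays, 1 per condition: SCD1-WT cells given the SCD1 inhibitor T-3764518 (100 nM by the methods) for 24 h, SCD1-KO cells, and SCD1-WT cells given DMSO for 24 h, to which the others are compared. SCD1 is a desaturase that makes monounsaturated fatty acids. According to the study the SCD1-KO cells received DMSO, although their labels name neither a vehicle nor a time. These cells, called the knockout here, come from clones picked by PCR after CRISPR-Cas9 cutting of the gene. The study also reports the deletion by sequencing and the absence of SCD1 protein on western blots. How many clones the array holds is not stated in the sources used here, and the loss of SCD1 cannot be told apart from the history of a clone. Without replicate arrays no p-value can be given and no difference has a replicate check. The measure of spread used instead is the SD of the log2 ratio between probe sets of the same gene at a similar signal, which does not cover differences between cultures.

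BMPs are secreted ligands of the TGF-β superfamily. They bind receptor kinases of type I (BMPR1A among them) and type II (BMPR2), which phosphorylate SMAD1, SMAD5 and SMAD9. These enter the nucleus with SMAD4 and switch on ID1, ID2 and ID3 together with the inhibitory SMAD6 and SMAD7, which feed back on the receptors. ID proteins have a helix-loop-helix domain but lack the basic region that binds DNA. They bind E proteins and keep them off their target genes, and in the intestine they are known from progenitor cells and from tumours.

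The sequences just before the RefSeq transcription starts of the ID genes are shown because these paralogs had unlike ratios on the arrays. Whether the sequences bear on those ratios was not tested. Each line gives the last 100 bases before the start (GRCh38.p14), 5′ to 3′ on the strand of the gene, at chr20:31605189-31605288 for ID1 (plus strand), chr2:8681956-8682055 for ID2 (plus strand), chr1:23559502-23559601 for ID3 (minus strand) and chr6:19837270-19837369 for ID4 (plus strand). Capitals mark matches, on either strand, to the CCAAT box, to the core TATAA of the TATA box and to its variant ATAAAAG; the CCAAT box of ID1 is on the other strand.
ID1: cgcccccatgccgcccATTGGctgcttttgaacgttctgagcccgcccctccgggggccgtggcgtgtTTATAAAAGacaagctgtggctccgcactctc
ID2: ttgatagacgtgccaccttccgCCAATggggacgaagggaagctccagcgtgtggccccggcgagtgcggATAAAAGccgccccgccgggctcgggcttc
ID3: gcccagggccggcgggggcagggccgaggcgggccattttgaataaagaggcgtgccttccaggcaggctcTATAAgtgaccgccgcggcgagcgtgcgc
ID4: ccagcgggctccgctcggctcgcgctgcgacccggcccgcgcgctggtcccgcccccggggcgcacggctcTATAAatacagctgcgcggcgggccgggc

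ID1 and ID2 shared ATAAAAG with its first base 30 bases before the start, where in ID1 it overlaps TATAA. ID3 and ID4 had TATAA 29 bases before it. A CCAAT match lay 84 bases before the start in ID1 and 78 in ID2, ID4 had 1 at 220 bases and ID3 had none within 250 bases. ID2 had 3 such matches in its 250 bases. Over all 35116 promoter entries of the table, the 250 bases before the start held CCAAT in 32.0%, TATAA in 18.9% and ATAAAAG in 4.25%, on either strand. GGCGCC, the core of the BMP response element, was in 16.4% of them but in the 250 bases of none of the 4 ID genes, which says only that these letters are not there. It was found before the first listed start of BMP4 and in BMPR2. GTCTG, which SMADs can bind, was in 38.0% of the entries and in the 250 bases of ID3 and ID4. Outside the ID genes it was found before at least 1 listed start of BMP4, BMPR2 and SMAD7. Promoters of 9 of the 10 genes were in the table, and BMP2 was not.

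The arrays had equal trimmed means (500.1), and their median signals were 56.7 under T-3764518, 62.4 in the knockout and 68.8 with DMSO. SCD, the targeted gene, had geometric mean signals of 14919 under T-3764518, 5506 in the knockout and 2907 with DMSO, and because the deleted part is not placed on its probe sets this does not check the knockout. Of 10 epithelial markers 9 were tested. KRT8, a keratin of simple epithelia, was 1.01-fold its DMSO signal under T-3764518 and 1.28-fold in the knockout, whereas EPCAM and CDH1, which hold epithelial cells together, were below DMSO in the knockout by 2.46-fold and 2.78-fold. The summed signal of the epithelial markers was 97281 under T-3764518, 82391 in the knockout and 88208 with DMSO. The summed signals of fibroblast, endothelial and leukocyte markers lay between 224 and 2273 on every array, and none of their 5 tested genes was past 2-fold. The part of the lower EPCAM and CDH1 signals in the ID values was not tested.

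ID2 in the knockout had the ratio farthest from DMSO among the 8 tested genes. Its median over 2 probe sets was 10.2-fold lower in the knockout (log2 ratio -3.35), which put it 11th from the lowest of 12321 genes. With T-3764518 it was 1.47-fold lower (log2 ratio -0.55). BMP4 was 2.94-fold lower under T-3764518 (log2 ratio -1.55) and 1.39-fold higher in the knockout (log2 ratio 0.48). ID4 had a log2 ratio of -1.52 in the knockout on a dim probe set. No other tested gene of the set reached 2-fold in either state.

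Counted at 2-fold, 1 of 8 tested genes was lower under T-3764518 (BMP4) and none was higher, beside 3.3% of all tested genes lower and 2.18% higher. In SCD1-KO cells 2 of 8 were lower (ID2 and ID4) and none was higher, beside 3.93% lower and 3.12% higher. The median log2 ratio of the 8 genes was -0.25 under T-3764518 and -0.17 in the knockout, where all tested genes had medians of -0.087 and -0.011. Of all tested genes, 269 were higher and 407 lower under T-3764518, a split that depended on the scaling: 353 and 265 after quantile normalization, 551 and 163 with the arrays scaled to 1 median, and 365 and 244 after a lowess correction. In SCD1-KO cells it was 385 higher and 484 lower, or 571 and 365 with the arrays scaled to 1 median. BMP4 under T-3764518 and ID2 in the knockout were past 2-fold under each of these scalings. The ID4 call was lost with its knockout signal, which is under 56.6, raised to that level. Both states share the DMSO array, so their ratios are not independent.

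**Figure D1:**
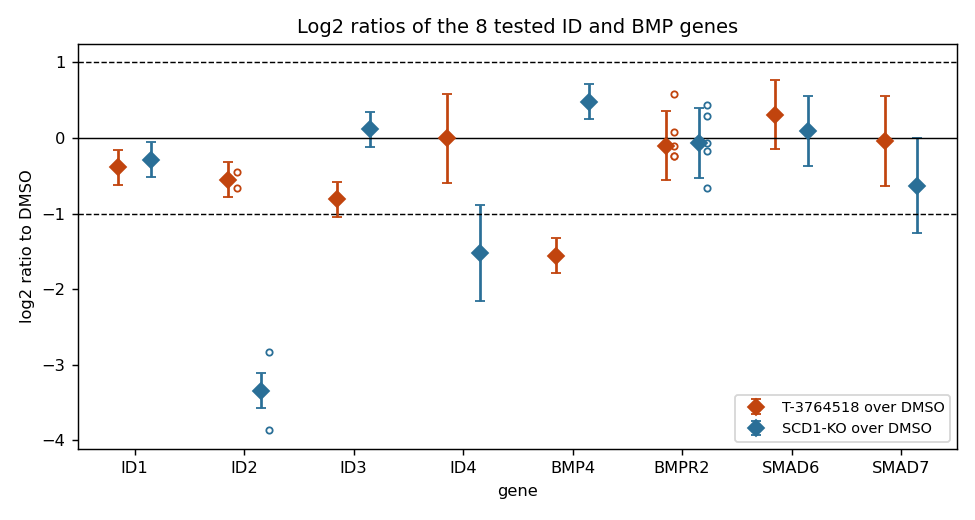
Log2 ratio to DMSO (y axis) of the 8 tested genes (x axis) under T-3764518 (red-brown) and in SCD1-KO cells (blue). Diamonds are gene values (the median over kept probe sets), open circles the probe sets of ID2 and BMPR2, and bars ± 1 SD between probe sets of genes at a similar signal; dashed lines mark 2-fold. ID2 at -3.35 and ID4 at -1.52 in the knockout and BMP4 at -1.55 under T-3764518 lie below the lower line.

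ID2 binds E proteins and was read by 2 probe sets with 1 gene. 201565_s_at had signals of 6124 under T-3764518, 1365 in the knockout and 9668 with DMSO. 201566_x_at had signals of 2466 under T-3764518, 230.0 in the knockout and 3359 with DMSO. On both, SCD1-KO cells were far the lowest and DMSO the highest. The SCD1-KO ratio was 7.08-fold lower on the first probe set and 14.6-fold lower on the other, whose _x_at name marks probes that can match other transcripts. The ratio under T-3764518 was 1.58-fold and 1.36-fold lower. The SD between probe sets at this signal was 0.24 on the log2 scale under T-3764518 and 0.23 in the knockout, less than the gap between the knockout log2 ratios of these probe sets (-2.82 and -3.87). SCD1-KO cells were also 4.49-fold and 10.7-fold lower than cells under T-3764518, a comparison that does not use the DMSO array. A further probe set, 213931_at, annotated to ID2 and to ID2B and so outside the set, had signals of 599 under T-3764518, 399 in the knockout and 1038 with DMSO. It was 1.73-fold lower under T-3764518 and 2.60-fold lower in the knockout. The order of the arrays was that of the other ID2 probe sets, with a smaller difference in the knockout and a larger one under T-3764518.

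ID1, the paralog most used as a readout of BMP signalling, had signals of 18731 under T-3764518, 20107 in the knockout and 24548 with DMSO. Both states lay below DMSO by little, 1.31-fold under T-3764518 and 1.22-fold in the knockout. The log2 ratios of -0.39 and -0.29 compare with an SD of 0.24 and 0.23 between probe sets at this signal. ID1 was read by 1 probe set, 208937_s_at.

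ID3, the remaining paralog of the classic BMP targets, had signals of 2616 under T-3764518, 4983 in the knockout and 4594 with DMSO. The T-3764518 array was thus the low one and the other arrays were close to each other. ID3 was 1.76-fold lower under T-3764518 and 1.08-fold higher in the knockout, and 1.90-fold higher in the knockout than under T-3764518. With T-3764518, ID1, ID2 and ID3 were all below DMSO, by log2 ratios of -0.39, -0.55 and -0.81, and under each scaling tried they stayed below it. In SCD1-KO cells the same genes had log2 ratios of -0.29, -3.35 and 0.12.

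ID4 had 5 probe sets, and 1 was kept. 209293_x_at had signals of 99.7 under T-3764518, 34.9 in the knockout and 100 with DMSO, so the SCD1-KO array alone stood low. The deposited signals gave 2.87-fold lower in the knockout. The SCD1-KO signal lay under 56.6, and with it raised to that level ID4 was at least 1.77-fold lower, which is short of 2-fold. The SD between probe sets at this signal was 0.63. The kept probe set (geometric mean 70.3) was the member just inside the signal filter, and a BMPR2 probe set (33.9) the one just outside. The 4 dim ID4 probe sets had signals between 1.84 and 40.4, all under 56.6, so the order of their arrays is not read.

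**Figure D2:**
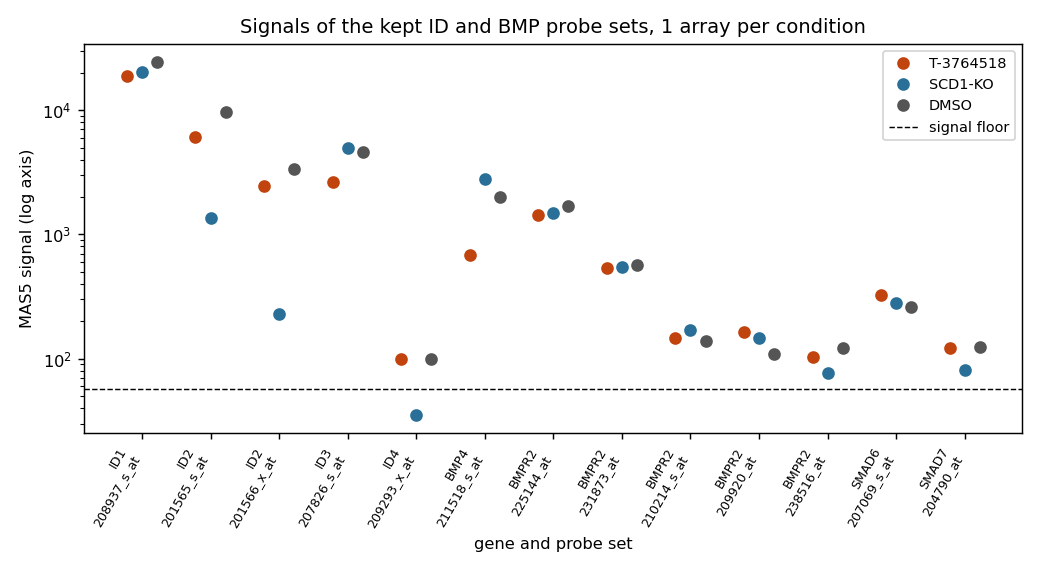
MAS5 signal on a log axis (y axis) of each kept probe set of the set (x axis, gene and probe set name), 1 point per array: T-3764518 (red-brown), SCD1-KO (blue) and DMSO (grey). The dashed line is the floor of 56.6. The SCD1-KO points of both ID2 probe sets and of ID4 (below the floor) and the T-3764518 point of BMP4 stand apart in their columns.

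BMP4, a ligand that signals through BMPR1A and BMPR2, had signals of 681 under T-3764518, 2786 in the knockout and 2001 with DMSO. The T-3764518 array was the low one and the SCD1-KO array the high one. It was 2.94-fold lower under T-3764518, 77th from the lowest of 12321 genes, and 1.39-fold higher in the knockout. Between the states it was 4.09-fold higher in the knockout than under T-3764518. The log2 ratios of -1.55 and 0.48 compare with an SD of 0.24 and 0.23. BMP4 was read by 1 probe set, 211518_s_at, so no second one checks these values.

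BMP2, its close paralog, was read by 2 dim probe sets. 205290_s_at had signals of 27.9 under T-3764518, 1.45 in the knockout and 8.50 with DMSO, and 205289_at had 6.70 under T-3764518, 2.81 in the knockout and 5.70 with DMSO. All 6 signals were under 56.6, so no fold is given.

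BMPR2, the type II receptor, was read by 5 kept probe sets and 1 dim one. 225144_at had signals of 1424 under T-3764518, 1493 in the knockout and 1681 with DMSO. 231873_at had 532 under T-3764518, 548 in the knockout and 572 with DMSO. The arrays were close together on both. Over the 5 probe sets the log2 ratio ran between -0.24 and 0.59 under T-3764518 (median -0.10) and between -0.66 and 0.43 in the knockout (median -0.062). The probe sets fell on both sides of 0 in each state, and with the arrays scaled to 1 median the gene's ratios were 0.18 and 0.079.

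SMAD6 and SMAD7 block type I receptors and are targets of the signal they block. SMAD6 had signals of 324 under T-3764518, 280 in the knockout and 262 with DMSO on its kept probe set, and SMAD7 had 121.6 under T-3764518, 80.7 in the knockout and 125.0 with DMSO on its only one. The SMAD6 arrays lay within 1.24-fold, while for SMAD7 the SCD1-KO array was low. SMAD6 had log2 ratios of 0.31 under T-3764518 and 0.096 in the knockout, against an SD of 0.45 and 0.46. Its other 3 probe sets were dim (signals between 2.70 and 49.8, all under 56.6), so the order of their arrays is not read. SMAD7 was at a log2 ratio of -0.040 under T-3764518 and -0.63 in the knockout, where the SD at this signal is 0.63. With the arrays scaled to 1 median SMAD7 was at 0.24 under T-3764518.

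The 10 probe sets of the set that were not kept belong to ID4 (4), SMAD6 (3), BMP2 (2) and BMPR2 (1). Their signals lay between 1.45 and 62.9 on the 3 arrays, so no ratio of theirs is read and none enters a count of genes. The exception is the alternative with no signal filter, described at the end.

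**Figure D3:**
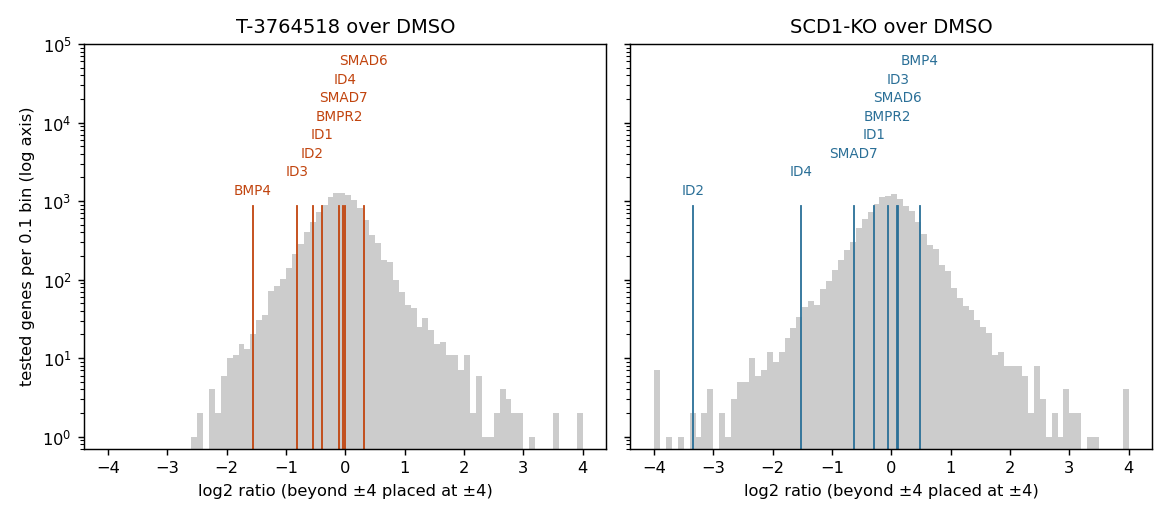
Number of tested genes (y axis, log scale) by log2 ratio to DMSO (x axis, bins of 0.1) under T-3764518 (left) and in the knockout (right), with the 8 tested genes of the set as vertical lines. BMP4 lies in the lower tail under T-3764518 (-1.55), ID2 (-3.35) and ID4 (-1.52) in the lower tail in the knockout, and the other genes in the bulk.

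The rest of the pathway was followed in 10 lists that hold 112 genes, of which 70 were tested. With T-3764518 6 of the 70 were 2-fold higher and 4 lower, and in the knockout 6 were higher and 3 lower. Over all tested genes 2.18% were higher and 3.3% lower under T-3764518, and 3.12% higher and 3.93% lower in the knockout. With the arrays scaled to 1 median the list genes were 9 higher and 0 lower under T-3764518, and 8 higher and 2 lower in the knockout, so each of the 4 lower calls under T-3764518 (TGFBR3, CHRD, NBL1 and GATA2) was lost, at log2 ratios between -0.92 and -0.81. The median log2 ratio was 0.0057 under T-3764518 and -0.11 in the knockout.

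Among 5 tested BMP and GDF ligands and 3 TGF-β and activin ligands none was past 2-fold in either state. GDF15, a ligand induced by cell stress, was 1.89-fold its DMSO level under T-3764518 and 1.20-fold in the knockout. TGFB3 was 1.20-fold and 1.87-fold. Of 10 tested receptors and co-receptors only TGFBR3, the co-receptor betaglycan, was past 2-fold: it was 2.24-fold lower under T-3764518 and at a log2 ratio of -0.70 in the knockout, with signals of 201 under T-3764518, 279 in the knockout and 451 with DMSO. Scaled to 1 median, TGFBR3 was at -0.89 under T-3764518, short of 2-fold.

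The extracellular antagonists, which bind ligands and keep them from receptors, went both ways. Of 5 tested, 2 were 2-fold lower and 1 was higher under T-3764518, and 1 was higher in the knockout. CHRD, which encodes the BMP trap chordin, had signals of 91.8 under T-3764518, 116 in the knockout and 211 with DMSO, 2.29-fold lower under T-3764518 and 1.81-fold lower in the knockout. NBL1, the BMP antagonist DAN, had signals of 375 under T-3764518, 497 in the knockout and 806 with DMSO, 2.15-fold and 1.62-fold lower. FSTL3, which traps activins, was 2.19-fold higher under T-3764518 and 2.33-fold higher in the knockout. For CHRD and NBL1 both states were below DMSO, and for FSTL3 both were above it. Scaled to 1 median, CHRD was at -0.92 and NBL1 at -0.82 under T-3764518, both short of 2-fold. The list median (log2 ratio) was -0.61 under T-3764518, where other settings gave up to 0.071, and -0.13 in the knockout.

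Among 19 tested SMADs and SMAD regulators 1 was past 2-fold in each state. SKIL, which encodes the SMAD corepressor SnoN, was 2.72-fold higher under T-3764518 (at least 2.56-fold with signals under 56.6 raised to it) and 1.76-fold its DMSO level in the knockout. RUNX2, a runt factor that works with SMADs and is itself a BMP target, had signals of 742 under T-3764518, 86.8 in the knockout and 454 with DMSO. It was 5.23-fold lower in the knockout and 1.64-fold its DMSO level under T-3764518, on 1 probe set. The medians of the list were 0.015 and -0.074.

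Of 10 other tested BMP target genes, 1 was higher and 1 lower in each state. HEY1, a transcriptional repressor induced by Notch and BMP, was 2.98-fold higher under T-3764518 and 2.29-fold higher in the knockout. GATA2, a zinc finger factor, was 2.12-fold lower under T-3764518 and at a log2 ratio of 0.093 in the knockout, where its 3 probe sets ran between -1.40 and 0.22. GATA2 was short of 2-fold under T-3764518 when scaled to 1 median (-0.81). RUNX2 was the gene lower in the knockout. The medians of the list were -0.39 under T-3764518 and -0.13 in the knockout, where other settings gave up to 0.37.

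TGF-β target genes, of which SKIL and others also answer to further signals, were a separate list. Of 6 tested, 3 were 2-fold higher under T-3764518 and 2 in the knockout, and none was lower, beside 2.18% and 3.12% of all tested genes higher. With so few genes, chosen with earlier results known, the count is a description. CCN2, a matricellular protein, had signals of 383 under T-3764518, 642 in the knockout and 121.0 with DMSO, 3.16-fold and 5.30-fold higher. CDKN2B, the CDK inhibitor p15, had 1128 under T-3764518, 789 in the knockout and 252 with DMSO, 4.48-fold and 3.14-fold higher. SKIL was the other gene called under T-3764518. Both states lay above DMSO for each of these genes. The list's median log2 ratio was 1.04 under T-3764518 and 0.72 in the knockout. HCT-116 cells are known for inactivating mutations of the TGF-β receptor gene TGFBR2.

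E proteins and the other basic helix-loop-helix factors are the partners and competitors of ID proteins. Of 9 tested, 1 was higher in each state (HEY1) and 2 were lower in the knockout. HES1, a Notch target, had signals of 820 under T-3764518, 650 in the knockout and 1361 with DMSO, 1.66-fold and 2.09-fold lower, and at -0.93 (log2) in the knockout when scaled to 1 median. BHLHE41, a circadian repressor, was 2.37-fold lower in the knockout with probe sets at -2.05 and -0.45, and at a log2 ratio of -0.061 under T-3764518. Of 5 CDK inhibitors that E proteins can induce, CDKN2B was higher in both states. CDKN1A, which encodes p21, was 2.29-fold higher in the knockout and 1.84-fold its DMSO level under T-3764518. The median log2 ratio of the 5 inhibitors was 0.41 under T-3764518 and -0.22 in the knockout, where other settings gave up to 0.051. The inhibitors not named here were thus below DMSO in the knockout, none of them past 2-fold. ATF3, a stress-induced factor known to repress ID1, was 7.25-fold higher under T-3764518 and 2.55-fold higher in the knockout. The ID1 ratios, given as level over DMSO, were 0.763 and 0.819. EGR1, the other of 2 tested genes in the list of ID1 regulators, was not past 2-fold in either state. The median log2 ratios of these 2 genes were 1.71 under T-3764518 and 0.67 in the knockout. They are midpoints between ATF3 (2.86 and 1.35) and the lower EGR1, and describe neither gene. The part of any of these genes in the ID values was not tested.

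**Figure D4:**
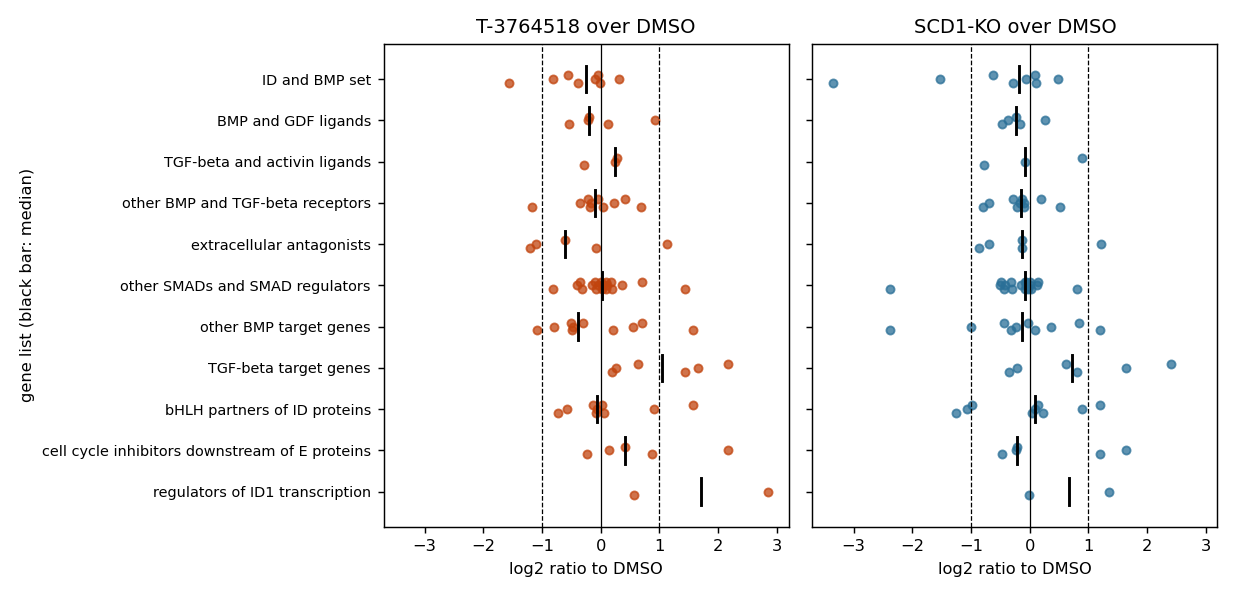
Log2 ratio to DMSO (x axis) of each tested gene (points) in the set of ID and BMP genes and in the 10 pathway lists (rows), under T-3764518 (left) and in the knockout (right). Black bars are list medians and dashed lines 2-fold; some genes stand in several lists. The TGF-β target genes have their medians at 1.04 and 0.72, and the set at -0.25 and -0.17.

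The median pair of log2 ratios of the 4 ID genes was -0.47 under T-3764518 and -0.90 in the knockout. Among tested genes past percentile 75 of mean signal, those nearest to it by Euclidean distance (0.036 to 0.055), each given with its T-3764518 ratio and then its SCD1-KO ratio, were EEF1AKMT2 (-0.46 and -0.87), WLS (-0.45 and -0.88), NMU (-0.45 and -0.94), SLC25A12 (-0.43 and -0.87) and MND1 (-0.42 and -0.91). In the knockout the ID genes themselves were at -0.29 (ID1), -3.35 (ID2), 0.12 (ID3) and -1.52 (ID4). The median pair thus stood for no single ID gene, and likeness to it is not likeness to one. With 3 arrays such likeness describes 2 ratios and no more.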

How the data were processed

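Total RNA of 3 HCT-116 samples was run by a service laboratory on Affymetrix U133 Plus 2.0 arrays. Each probe set has 1 linear signal intensity, deposited as the output of MAS5 per the submitters' processing notes (version not given in the sources used here). That program removes local background and scales each array, and its detection calls were not used here, and the number of arrays limits the precision. The SCD1-KO column carries more decimals than the others.

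The tools were statsmodels 0.14.6, pandas 2.3.3, numpy 2.4.6, matplotlib 3.10.9 and Python 3.11.15. Of 54675 probe sets, 41097 carry 1 gene symbol, 1801 several and 11777 are not listed in the platform annotation; 41043 were matched by gene ID to RefSeq (GRCh38.p14), and 6 control probe sets were left out. The filter was percentile 50 of the mean log2 signals over all probe sets, and each gene took the median ratio (log2) over probe sets past it. A gene was called at 2-fold. Geometric mean signals are over kept probe sets. A fold marked "at least" has signals under 56.6 raised to that level. The steps were tested on simulated data with less noise than these arrays show between probe sets. Each changed gene had an equal change in all its probe sets, so this checks the code and not the findings.

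The members and lists were chosen with earlier results of these data known. Named genes were all members, per list up to 4 genes past 2-fold or the 1 farthest from 0, and the 5 genes nearest to the median of the ID genes; markers and SCD were added as checks. The alternatives were 3 scalings, 2 filters, an offset of 16.5, the 56.6 floor, 3 choices of probe sets (the brightest, the mean, and none marked _s_at or _x_at) and thresholds of 1.5-fold and 3-fold. Genes without a probe set of 1 gene are not reported here.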

Additional observations from a re-analysis of the deposited data

Results flagged for a closer look

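BMP4 was the member past 2-fold in one state with the other state on the opposite side of DMSO, at log2 ratios of -1.55 under T-3764518 and 0.48 in the knockout. Each state is 1 array, so this difference was not tested, and 1 probe set carries it.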

How the results depend on the processing

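No paired analysis was possible because each condition has 1 array and no test was run. For the same reason no replicate could be left out. Of 142 member ratios recomputed under the 10 alternatives that give a ratio, 134 moved by less than the SD between probe sets. The other 8 moved by more, and 0 changed the sign of a called value. ID1, ID3, ID4, BMP4, SMAD6 and SMAD7 have 1 kept probe set, so the brightest and mean choices could not move them. The 134 thus include values that were fixed in advance. ID2 in the knockout ran between -3.38 and -2.82, BMP4 under T-3764518 between -1.55 and -1.28, and ID4 in the knockout between -2.40 (no filter) and -0.82 (signals raised to the floor). SMAD6 under T-3764518 was at -0.87 with no filter, where its dim probe sets enter. Under T-3764518, scaling to 1 median moved the median of all genes to 0.19, against -0.087, and moved ID1, ID2, ID3 and BMP4 to -0.11, -0.27, -0.53 and -1.28.

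The members past 2-fold in the knockout were 2 in the analysis as reported and 1 (ID2) with the filter at percentile 75, with signals raised to the floor and at 3-fold. They were 3 with no filter (BMP2, ID2 and ID4) and 3 at 1.5-fold (ID2, ID4 and SMAD7). Under T-3764518 the number was 1 as reported, 2 at 1.5-fold (BMP4 and ID3) and 0 at 3-fold. Without probe sets marked _s_at or _x_at it was 0 in both states, with 2 members left (BMPR2 and SMAD7), since the kept probe sets of ID1, ID2, ID3, ID4, BMP4 and SMAD6 carry those marks. Of 20 list medians (10 lists in each of 2 states), 13 took both signs over the settings, so no direction is read from those. RUNX2 in the knockout was at -0.77 and CHRD under T-3764518 at -0.81 with no filter, both short of 2-fold. Of 70 tested list genes, 14 were past 2-fold in at least 1 state. The number was 42 of 107 with no filter and 8 of 47 with the filter at percentile 75. It was 9 of 56 without _s_at and _x_at. At 1.5-fold it was 28 of 70, and at 3-fold 4 of 70. The share of all tested genes past the threshold in at least 1 state is not given here, so no excess is read from these list counts. The counts over all genes below are per state. Of all 12321 tested genes, 676 were past 2-fold under T-3764518 and 869 in the knockout. These numbers were 4550 and 4771 of 19775 genes with no filter. With the filter at percentile 75 they were 219 and 324 of 7955 genes. Among the 12321 genes they were 2332 and 2635 at 1.5-fold, and 154 and 241 at 3-fold. Signal over background limits ID4, SMAD7 and BMP2 most.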
